A study of Mus musculus with 6 samples.

Results

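This account covers 9 genes that mark classical monocytes (Ly6c2, F13a1, Fn1, Vcan, Plac8, Chil3, Hp, S100a4 and Gpr141), measured after the cells had been grown into macrophages. They were chosen by symbol, and all 9 were found among the 55487 genes of the count table. The study asked how macrophages differ that come from 2 kinds of mouse bone marrow cell. TpMo-derived macrophages (3 libraries) came from sorted cells that the labels call TpMos. Ly6Chi-derived macrophages (3 libraries) came from sorted mature Ly6Chi monocytes. Both groups were cultured for 7 days in medium with CSF-1, the growth factor on which macrophages depend, and were then scraped off for RNA sequencing. Strain, age, sex, the number of animals and the CSF-1 concentration of each sample are not given in the sources used here. No label ties the replicates to different cultures or mice, and the tests therefore speak of variation among these 6 libraries, which could be technical.

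Classical monocytes carry high levels of the surface antigen Ly6C and leave the marrow for blood and tissue. Under CSF-1 they attach, enlarge and become macrophages, and in doing so they are known to lose much of their monocyte gene program. The genes followed here belong to that program and encode a surface antigen and a receptor, secreted matrix and clotting proteins, secreted binding proteins, and small proteins inside the cell.

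The libraries held 23765773 to 33042094 counts on genes. Markers of the labelled cell type were present in both groups, since all 12 macrophage markers on the list used were tested. Their summed level, as counts scaled to library size (CPM), was 40013 to 42513 CPM in TpMo-derived and 29962 to 33118 CPM in Ly6Chi-derived libraries. Most of that sum was Lyz2, with means of 25681 CPM in TpMo-derived and 23319 CPM in Ly6Chi-derived libraries. Lyz2, Cd14 and Itgam are also on the list of other classical monocyte genes used below. Of the 12 macrophage markers 8 rose and 1, Itgam, fell in TpMo-derived macrophages (log2 fold change of Itgam -0.31). Over all genes tested, 6.54% were higher and 5.79% lower. The 8 included the complement gene C1qa and the mannose receptor Mrc1 (log2 fold changes 3.17 and 1.34). In bulk RNA, fewer cells that carry a transcript and less of it per cell cannot be told apart.

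After 7 days 6 of the 9 genes were counted near zero in both groups, with near zero set at under 1 CPM in every library, and 3 of the 9 were with a limit of 1 TPM or of 0.5 CPM. S100a4 could be counted only in part. The genes under 1 CPM were Ly6c2, Vcan, Plac8, Chil3, Hp and S100a4, as were 48.4% of the protein-coding genes listed. Gpr141, F13a1 and Fn1 were over that limit in every library and held 96.7 to 99.0% of all counts on the 9 genes in TpMo-derived libraries and 96.9 to 97.7% in Ly6Chi-derived libraries. F13a1, the A subunit of clotting factor XIII, was the single gene of the 9 that passed the test, 3.60-fold higher in TpMo-derived macrophages. Of the 9 genes, 6 passed the filter on low counts, and of these 1 rose, 0 fell and 5 did not pass (adjusted p under 0.05 in edgeR's quasi-likelihood test, with the Benjamini-Hochberg method over 13140 genes). Over all genes tested, 12.3% changed, 6.54% higher and 5.79% lower in TpMo-derived macrophages. A share of 1 in 6 tested genes is thus no result about monocyte genes as a group.

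**Figure D1:**
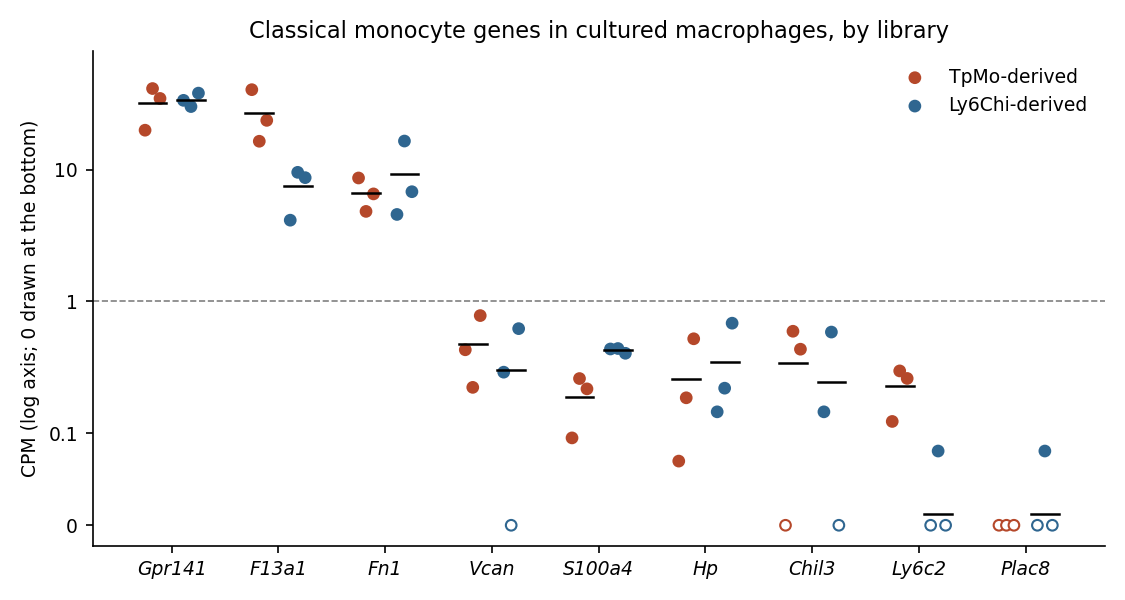
Level of each of the 9 genes in CPM (log axis, open circles at the bottom are libraries with 0 counts) in 3 TpMo-derived libraries, on the left of each gene, and 3 Ly6Chi-derived libraries, on the right; short black lines are group means and the dashed line marks 1 CPM. Gpr141, F13a1 and Fn1 lie above the line in every library and the other genes below it, and F13a1 in TpMo-derived libraries (16.4 to 40.5 CPM) lies above all Ly6Chi-derived libraries (4.14 to 9.55 CPM).

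How far a low count can be read depends on which reads of a gene could be counted, because reads that fit several places or lie on exons of several genes were left out. For 4 of the 9 genes, Vcan, Plac8, Hp and Gpr141, every 51-base window (the read length) of the longest coding transcript occurred in no other gene and lay on no other gene's exon. F13a1 and Fn1 kept 98.4% and 96.2% of their windows clear of other exons. Ly6c2 and Chil3 have near copies. The coding sequence of Ly6c2 (396 bases) is 97.7% identical to that of its neighbour Ly6c1, with 9 differences, and that of Chil3 (1197 bases) is 94.4% identical to that of Chil4. Of their windows, 67.7% for Ly6c2 (523 of 772) and 71.3% for Chil3 (1062 of 1489) occurred in no other gene. The stretches of 51 coding bases in which each pair differs most are shown because reads over them can be told apart within a pair. Capitals mark the bases that differ within a pair. The stretches are spliced coding sequence, read 5′ to 3′ from the transcripts of GENCODE M21 on GRCm38. They cover bases 1 to 51 for the Ly6c pair on chromosome 15 and bases 509 to 559 for the Chil pair on chromosome 3.
Ly6c2: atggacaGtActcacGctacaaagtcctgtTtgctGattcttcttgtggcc
Ly6c1: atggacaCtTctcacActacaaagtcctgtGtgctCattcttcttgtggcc
Chil3: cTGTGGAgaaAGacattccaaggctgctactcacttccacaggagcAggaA
Chil4: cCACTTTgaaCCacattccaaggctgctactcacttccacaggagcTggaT
Within these stretches the Ly6c pair differs at 5 positions and the Chil pair at 10. Both near copies, Ly6c1 and Chil4, had 0 counts in every library of both groups. Over all its transcripts Chil3 also shares 210 windows with Gm6522, against 267 with Chil4. The counts of Gm6522, and whether it shares the stretch shown, were not examined.

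S100a4 is a different case. Of its 584 exon bases, 302 (51.7%) are also exon of Gm42674, a protein-coding gene annotated on the same strand, and overlap of at least 50% is found for 2.93% of protein-coding genes. Only 110 of the 448 windows of its longest coding transcript (24.6%) lie clear of Gm42674, which itself had 0 counts in all libraries. The counts of S100a4 therefore cover a fraction of its reads, and its near-zero level is not evidence of a near-absent transcript.

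**Figure D2:**
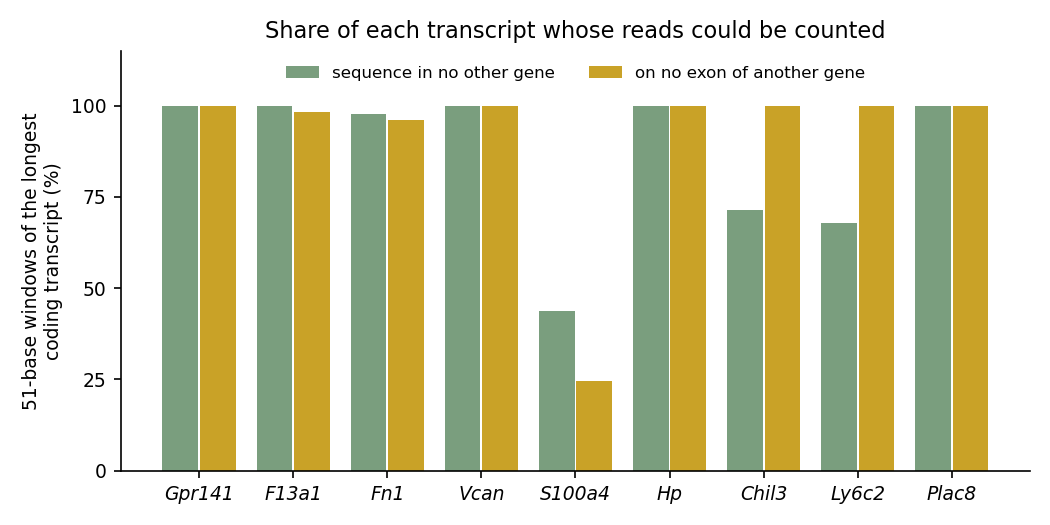
Share of the 51-base windows of each gene's longest coding transcript (in percent) whose sequence occurs in no other gene, left bar, and that lie on no exon of another gene, right bar. Both bars stand at or close to 100% for Gpr141, F13a1, Fn1, Vcan, Hp and Plac8. The left bars of Ly6c2 (67.7%) and Chil3 (71.3%) are lower, and S100a4 is lowest with 24.6% on the right. The left bar of S100a4 (43.75%) leaves out the windows it shares with Gm42674, which lie at the same place.

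Ly6c2 (ENSMUSG00000022584.14, chromosome 15, 75108158 to 75111970 on GRCm38, minus strand) encodes the membrane-anchored antigen Ly6C2, which the sort on Ly6C reads together with Ly6C1. It had 4, 8 and 6 counts in the TpMo-derived libraries, against 0, 2 and 0 counts in the Ly6Chi-derived libraries. The gene of the sort marker had few reads in the macrophages of both groups, and most of them lay in the TpMo-derived libraries, with no overlap between the groups. Its level in the cells before culture was not analysed here. At 0.227 ± 0.0919 CPM in TpMo-derived and 0.0244 ± 0.0423 CPM in Ly6Chi-derived macrophages (SD, n = 3 each), it stayed under the filter. The ratio of summed counts was 9.49, with an exact 95% interval from counting error of 2.27 to 84.3, and it rests on 2 counts of a single Ly6Chi-derived library, with every Ly6Chi-derived library under the floor of 3 counts. Since both mates of a pair were counted, the interval is wider, 1.31 to 416, when counts are halved to approximate pairs. An exact two-sided permutation test gave p = 0.1, the smallest that 3 against 3 libraries allow (0.3 adjusted over the 3 genes that were not tested by edgeR), and edgeR without the filter gave an adjusted p of 0.532.

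Its relatives on chromosome 15 were mixed. Ly6e, a broadly expressed member of the family, rose in TpMo-derived macrophages, to 571 ± 64.6 CPM, against 333 ± 22.2 CPM in Ly6Chi-derived macrophages (log2 fold change 0.78 ± 0.09 SE, edgeR adjusted p = 3.46e-04). Ly6a, which encodes the stem cell antigen Sca-1, stood at 2.80 ± 1.00 CPM in TpMo-derived and 2.83 ± 1.15 CPM in Ly6Chi-derived macrophages and did not pass. Of 11 Ly6 genes on the list 9 were in the table, 2 of them passed the filter, and 6 had 0 counts everywhere.

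Gpr141 (ENSMUSG00000053101.3, chromosome 13, 19749682 to 19824257, minus strand) encodes an orphan G protein-coupled receptor of myeloid cells. It was counted at 20.0, 41.3 and 34.8 CPM in the TpMo-derived libraries, against 33.6, 30.2 and 38.1 CPM in the Ly6Chi-derived libraries. The groups overlapped, with the lowest and the highest library both in the TpMo-derived group. Its log2 fold change was -0.09 ± 0.24 (SE), with an approximate 95% interval of -0.56 to 0.39, and it did not pass (edgeR adjusted p = 0.883). Per exon length it was the highest of the 9 genes, at 17.7 ± 6.08 TPM (counts scaled to length and library size) in TpMo-derived and 19.7 ± 2.24 TPM in Ly6Chi-derived macrophages, above 75.1% and 75.6% of the protein-coding genes listed.

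The close relative Gpr141b had 0 counts in every library. Among other orphan and purinergic receptors of myeloid cells, 3 of 11 tested genes rose and 0 fell, beside 6.54% higher and 5.79% lower over all genes tested, and their median log2 fold change was -0.04, beside 0.01 over all genes tested. Those that rose were Gpr84, which senses medium-chain fatty acids, at 37.9 ± 11.4 CPM in TpMo-derived and 9.14 ± 1.77 CPM in Ly6Chi-derived macrophages, the oxysterol receptor Gpr183 and the proton sensor Gpr65 (log2 fold changes 2.05, 0.77 and 0.71). The nucleotide receptors P2ry6 and P2rx7 did not pass, with log2 fold changes of -0.04 and -0.21.

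F13a1 (ENSMUSG00000039109.16, chromosome 13, 36867178 to 37050244, minus strand) encodes the transglutaminase subunit of factor XIII, which cross-links fibrin and matrix proteins and is made by monocytes and some tissue macrophages. It was counted at 40.5, 16.4 and 23.7 CPM in the TpMo-derived libraries, against 4.14, 9.55 and 8.70 CPM in the Ly6Chi-derived libraries. Every TpMo-derived library lay above every Ly6Chi-derived one, as was the case for 15.3% of all genes tested, and the spread within each group was wide, with 2.46-fold between the highest and lowest TpMo-derived library and 2.31-fold between those of the Ly6Chi-derived group. The means were 26.9 ± 12.3 CPM and 7.47 ± 2.91 CPM in TpMo-derived and Ly6Chi-derived macrophages (SD, n = 3 each), and the log2 fold change was 1.85 ± 0.39 (SE, edgeR adjusted p = 0.0113). It remained past the threshold when any 1 library was left out, with adjusted p from 0.00713 to 0.0475 and log2 fold changes from 1.42, without TpMo-derived replicate 1, to 2.10, without TpMo-derived replicate 2. In a test against a 1.5-fold change it did not pass (adjusted p = 0.0678). Per exon length F13a1 stood at 13.2 ± 6.15 TPM in TpMo-derived macrophages, where its range overlapped that of Gpr141, and at 3.81 ± 1.43 TPM in Ly6Chi-derived macrophages, where it lay below Gpr141 in every library.

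Platelets and their precursors also hold F13a1, so their markers were examined beside it. Of 6 markers, Gp9 and Gp1bb had 0 counts in every library, and Itga2b, which encodes the platelet integrin CD41, had 2 counts in TpMo-derived replicate 2, 20 in Ly6Chi-derived replicate 2 and 0 in the others. Pf4, a chemokine that macrophages also make, rose to 197 ± 70.0 CPM in TpMo-derived macrophages, against 38.9 ± 7.84 CPM in Ly6Chi-derived macrophages, Vwf fell to 20.5 ± 6.70 CPM in TpMo-derived macrophages, against 52.6 ± 7.82 CPM in Ly6Chi-derived macrophages, and Ppbp stood at 2.41 ± 1.19 CPM in TpMo-derived and 0.121 ± 0.210 CPM in Ly6Chi-derived macrophages and did not pass (edgeR adjusted p of 3.07e-04, 0.00351 and 0.0733). The summed level of the 6 markers was 146 to 266 CPM in TpMo-derived and 81.3 to 104 CPM in Ly6Chi-derived libraries. Of 5 endothelial markers, Tek and Emcn had 0 counts in every library. Kdr was the most abundant, at 29.97 ± 2.53 CPM in TpMo-derived and 14.7 ± 8.37 CPM in Ly6Chi-derived macrophages. It did not pass (edgeR adjusted p = 0.0878). Cdh5 had 16, 0 and 0 counts in the TpMo-derived libraries, against 8, 0 and 10 in the Ly6Chi-derived libraries. Pecam1, which platelets also carry, stood at 0.880 ± 0.252 CPM in TpMo-derived and 0.0207 ± 0.0359 CPM in Ly6Chi-derived macrophages (edgeR adjusted p = 0.0356). Pecam1 reached the filter's level in TpMo-derived libraries only, so it was tested only because of the group in which it is higher. Ppbp also reached that level in Ly6Chi-derived replicate 1, at 10 counts, with 0 counts in the other Ly6Chi-derived libraries. It therefore passed the filter mainly through the group in which it is higher. Macrophage markers were also higher in sum in the TpMo-derived libraries. The part of these markers in the F13a1 result was not tested.

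Of 25 other transglutaminases and clotting genes on the list, 12 were tested, 0 rose and 3 fell, beside 5.79% lower over all genes tested, and the median log2 fold change was -0.31. Tgm2, the tissue transglutaminase, fell to 143 ± 7.84 CPM in TpMo-derived macrophages, against 239 ± 3.40 CPM in Ly6Chi-derived macrophages (log2 fold change -0.75 ± 0.07 SE, edgeR adjusted p = 1.45e-04). The protein C receptor Procr and the urokinase receptor Plaur also fell, with log2 fold changes of -1.26 and -0.36. Plau, the urokinase itself, and Thbd, which encodes thrombomodulin, did not pass. They stood at 225 and 23.2 CPM in TpMo-derived and 200.2 and 25.3 CPM in Ly6Chi-derived macrophages. F13b, the carrier subunit of factor XIII, which the liver makes, and the fibrinogen genes Fga, Fgb and Fgg had 0 counts.

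Fn1 (ENSMUSG00000026193.15, chromosome 1, 71585520 to 71653200, minus strand) encodes fibronectin, a matrix protein to which integrins attach. It was counted at 8.66, 4.83 and 6.55 CPM in the TpMo-derived libraries, against 4.58, 16.5 and 6.81 CPM in the Ly6Chi-derived libraries. The groups overlapped, and Ly6Chi-derived replicate 2 stood apart above the rest. The log2 fold change was -0.47 ± 0.45 (SE), with an approximate interval of -1.36 to 0.41 (edgeR adjusted p = 0.607), and it was 0.22 without that library. The 8 fibroblast and stromal markers examined, among them Col1a1, Col1a2 and Pdgfra, had 0 counts in all 6 libraries.

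Among 13 fibronectin receptor genes 11 were tested, of which 3 rose and 2 fell, beside 12.3% changed in either direction over all genes tested. The shared integrin chain Itgb1 rose to 758 ± 16.8 CPM in TpMo-derived macrophages, against 577 ± 30.6 CPM in Ly6Chi-derived macrophages, and the syndecan Sdc4 rose to 447 ± 25.7 CPM, against 270.0 ± 5.07 CPM in Ly6Chi-derived macrophages. Itgb7 and Itgb3 fell, with log2 fold changes of -2.19 and -2.11. The third gene that rose was Itga9 (log2 fold change 1.98), which was named after its values were seen. Itga5, the chain specific to fibronectin, did not pass, at 399 ± 49.7 CPM in TpMo-derived and 438 ± 21.2 CPM in Ly6Chi-derived macrophages.

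Vcan (ENSMUSG00000021614.16, chromosome 13, 89655312 to 89742509, minus strand) encodes versican, a large chondroitin sulfate proteoglycan. It had 14, 6 and 18 counts in the TpMo-derived libraries, against 8, 0 and 20 counts in the Ly6Chi-derived libraries, on 14462 exon bases. Both groups were near zero and overlapped, and Vcan did not pass (log2 fold change 0.63 ± 1.29 SE, approximate interval -1.89 to 3.15, edgeR adjusted p = 0.835). Of 24 versican partners and proteases 8 were tested, 0 rose and 2 fell (5.79% of all genes tested fell), and 10 had 0 counts, including Adamts1, Adamts5 and Has2. Those that fell were Xylt1, which starts chondroitin sulfate chains, and the selectin ligand Selplg, with log2 fold changes of -1.26 and -0.55. The hyaluronan receptor Cd44, which binds versican's partner, stood at 901 ± 29.9 CPM in TpMo-derived and 975 ± 52.1 CPM in Ly6Chi-derived macrophages and did not pass.

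Chil3 (ENSMUSG00000040809.10, chromosome 3, 106147554 to 106167564, minus strand) encodes Ym1, a chitinase-like lectin that myeloid cells secrete. It had 0, 16 and 10 counts in the TpMo-derived libraries, against 4, 16 and 0 counts in the Ly6Chi-derived libraries. Each group held a library with no read, and the groups overlapped fully (log2 fold change 0.48, approximate interval -2.65 to 3.62, edgeR adjusted p = 0.905). It passed the filter through 2 TpMo-derived libraries and 1 Ly6Chi-derived library. Of 8 other chitinase and chitinase-like genes, 4 had 0 counts, Chil4 among them. Chil1 had 22 counts in TpMo-derived replicate 3 and 19 in Ly6Chi-derived replicate 3 and none elsewhere. The lysosomal Ctbs and Chid1 were at 25.3 and 52.3 CPM in TpMo-derived and 22.6 and 59.5 CPM in Ly6Chi-derived macrophages, and neither passed.

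Hp (ENSMUSG00000031722.10, chromosome 8, 109575128 to 109579172, minus strand) encodes haptoglobin, which binds free haemoglobin and is stored in neutrophil granules. It had 2, 5 and 12 counts in the TpMo-derived libraries, against 4, 6 and 22 counts in the Ly6Chi-derived libraries. The groups overlapped, with replicate 3 highest in each, and Hp stayed under the filter (exact permutation p = 0.6, or 0.9 adjusted over the 3 untested genes). The receptor for the haptoglobin and haemoglobin complex, Cd163, rose in TpMo-derived macrophages to 6.39 ± 1.93 CPM, against 1.99 ± 0.923 CPM in Ly6Chi-derived macrophages (log2 fold change 1.68 ± 0.45 SE, edgeR adjusted p = 0.0350). Hmox1, which breaks down haem, and Lrp1, a receptor for haem-loaded haemopexin, did not pass, with log2 fold changes of -0.16 and -0.12, and haemoglobin genes Hbb-bs and Hba-a1 had 0 counts.

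S100a4 (ENSMUSG00000001020.8, chromosome 3, 90603771 to 90606045, plus strand) encodes a small calcium-binding protein linked to cell motility. It had 3, 7 and 5 counts in the TpMo-derived libraries, against 12, 12 and 13 counts in the Ly6Chi-derived libraries. All TpMo-derived libraries lay below all Ly6Chi-derived ones, as for 15.2% of the genes tested, at 0.190 ± 0.0872 CPM in TpMo-derived and 0.426 ± 0.0193 CPM in Ly6Chi-derived macrophages (SD, n = 3 each). It did not pass (log2 fold change -1.16 ± 1.02 SE, approximate interval -3.16 to 0.84, edgeR adjusted p = 0.568). It reached the filter's level in the 3 Ly6Chi-derived and in 0 TpMo-derived libraries, so it was tested only because of the group in which it is higher. Together with the overlap with Gm42674 this leaves its level and its difference uncertain.

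Of 14 other S100 genes on the list 5 were tested, 0 rose and 0 fell, and the median log2 fold change was -0.24. S100a6, its neighbour on chromosome 3, stood at 14.4 ± 0.0798 CPM in TpMo-derived and 16.4 ± 0.576 CPM in Ly6Chi-derived macrophages, and S100a10 and S100a1 at 28.0 and 13.3 CPM in TpMo-derived and 33.2 and 20.3 CPM in Ly6Chi-derived macrophages. S100a8 and S100a9, which form the calprotectin of monocytes and neutrophils, were near zero, S100a8 with 2, 8 and 4 counts in the TpMo-derived libraries, against 2, 10 and 26 counts in the Ly6Chi-derived libraries, and S100a9 with 2 counts in TpMo-derived replicate 3 and 0 elsewhere. Whether other genes overlap these S100 genes, as Gm42674 overlaps S100a4, was not examined. Of the 11 neutrophil markers examined, Ly6g, Lcn2, Retnlg and Stfa2l1 had 0 counts, and Mmp8, a collagenase, was the single one tested and fell to 31.8 ± 3.81 CPM in TpMo-derived macrophages, against 61.0 ± 2.73 CPM in Ly6Chi-derived macrophages. Ltf had 0, 58 and 38 counts in the TpMo-derived libraries, against 4, 0 and 0 in the Ly6Chi-derived libraries. Ngp had 32, 8 and 0 counts, against 0, 5 and 14. Cxcr2 and Camp had at most 2 counts in any library.

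Plac8 (ENSMUSG00000029322.12, chromosome 5, 100553725 to 100572245, minus strand) encodes a small cysteine-rich protein of myeloid cells. It had 0 counts in the 3 TpMo-derived libraries, which allows up to 0.0908 to 0.126 CPM per library at 3 counts, and 0, 2 and 0 counts in the Ly6Chi-derived libraries. With both groups at or under that floor no fold change is given.

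**Figure D3:**
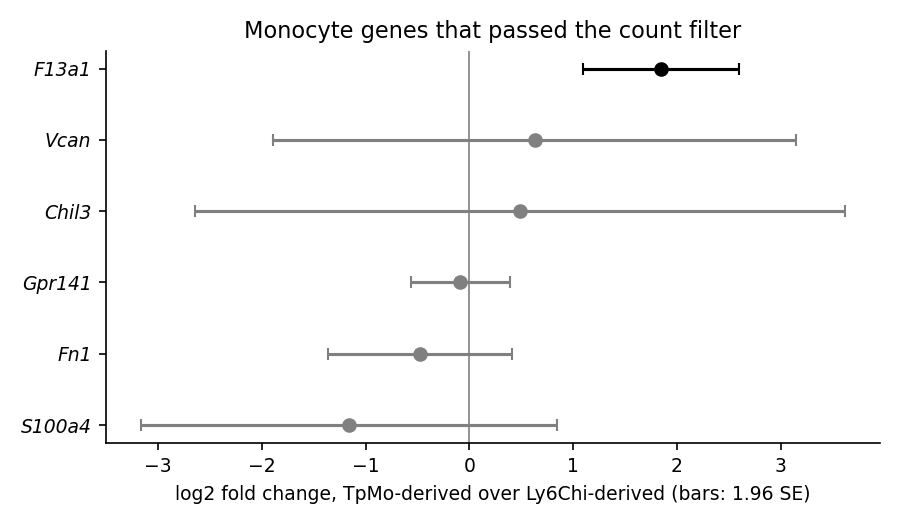
Log2 fold change of TpMo-derived over Ly6Chi-derived macrophages for the 6 genes that passed the filter; bars are approximate 95% intervals from the SE, black marks the gene past the threshold and grey the others. F13a1 (1.85) lies clear of 0, Gpr141 (-0.09) has the narrowest interval around 0, and the intervals of Vcan, Chil3 and S100a4 span several log2 units.

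Over all 9 genes the groups did not overlap for F13a1, Ly6c2 and S100a4, with F13a1 and Ly6c2 higher and S100a4 lower in TpMo-derived libraries. The groups did not overlap for 30.5% of the 13140 genes tested and for 20.8% of all 21503 genes with a count. Among the 6 members tested, F13a1 and S100a4 did not overlap, a share near the first of these. Ly6c2 was not tested, so the share over all 9 genes belongs beside the second. That share is higher, but it rests on few genes, and Ly6c2 and S100a4 had few counts. It is no result about the 9 genes as a group. By mean level per exon length Gpr141 came before F13a1 and Fn1 in both groups, but in TpMo-derived macrophages the ranges of Gpr141 and F13a1 overlapped, and in replicate 1 F13a1 (20.1 TPM) was above Gpr141 (11.1 TPM). In TpMo-derived macrophages Fn1 (1.89 ± 0.549 TPM) lay below F13a1 in every library, while in Ly6Chi-derived macrophages the ranges of Fn1 (2.74 ± 1.84 TPM) and F13a1 overlapped. Among the near-zero genes most neighbours in the order overlapped in range, and the place of S100a4 is not set by its counts.

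The remaining classical monocyte genes went both ways. Of 35 on a list without the 9, 31 were tested, 6 rose and 10 fell, beside 6.54% higher and 5.79% lower over all genes tested, and the median log2 fold change was -0.18. On the same list Ly6c1, S100a8, S100a9 and Cebpb, named after their values were seen, were near zero. Whether other genes overlap S100a8, S100a9 or Cebpb was not examined. Ms4a4c, a membrane protein of the Ms4a family, rose to 21.4 ± 6.50 CPM in TpMo-derived macrophages, against 1.66 ± 0.268 CPM in Ly6Chi-derived macrophages, and the interferon-induced membrane protein Ifitm3 rose to 124 ± 16.8 CPM, against 42.5 ± 4.18 CPM in Ly6Chi-derived macrophages. The phosphodiesterase Smpdl3a fell to 378 ± 15.8 CPM in TpMo-derived macrophages, against 758 ± 19.8 CPM in Ly6Chi-derived macrophages, and the interleukin-17 receptor chain Il17ra fell to 77.5 ± 12.9 CPM, against 204 ± 12.6 CPM in Ly6Chi-derived macrophages. The most abundant members that did not pass were lysozyme Lyz2, with a log2 fold change of 0.14, and the lectin Clec4d, with -0.22.

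Of 12 genes of marrow precursors, 6 had 0 counts, namely the granule genes Mpo, Prtn3 and Ctsg, the precursor genes Ms4a3 and Flt3, and the transcription factor Myb. Among the 5 tested, 1 rose and 2 fell, beside 6.54% higher and 5.79% lower over all genes tested. Irf8, which directs monocyte formation, rose (log2 fold change 0.37 ± 0.07 SE, edgeR adjusted p = 0.00502). The surface antigen Cd34 and the marrow-retention receptor Cxcr4 fell (log2 fold changes -3.13 and -2.57). Kit and Cebpe did not pass, at 2.15 and 0.480 CPM in TpMo-derived and 0.145 and 1.71 CPM in Ly6Chi-derived macrophages. Kit had 80, 82 and 22 counts in the TpMo-derived libraries, against 12, 0 and 0 in the Ly6Chi-derived libraries. Cebpe had 32, 10 and 2 counts, against 32, 42 and 78. Each passed the filter mainly through the group in which it is higher.

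**Figure D4:**
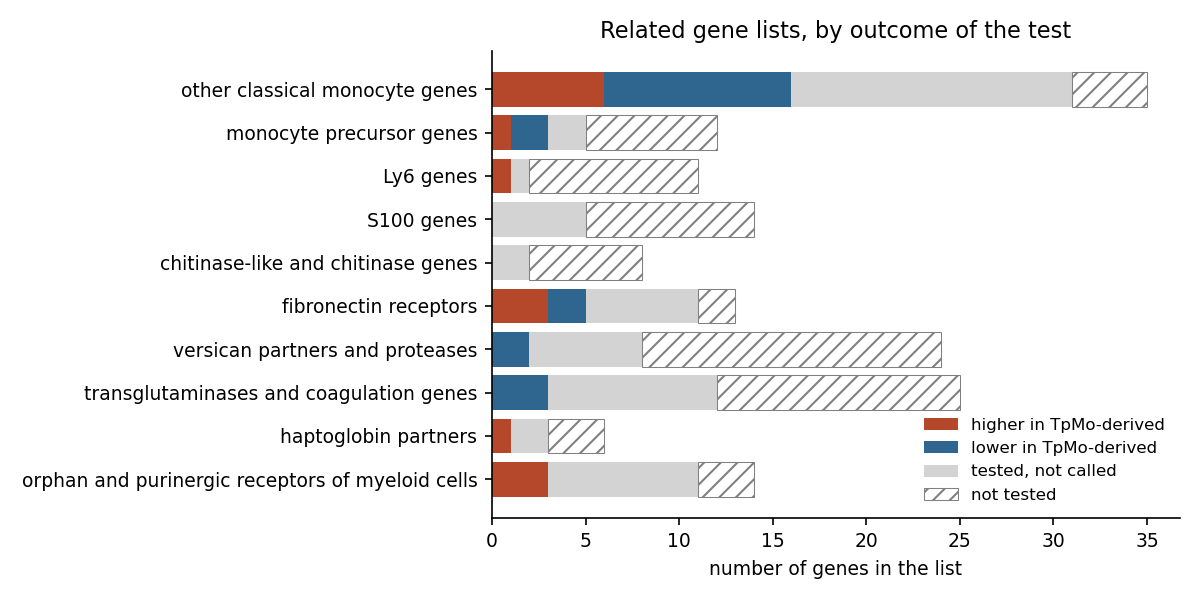
Number of genes on each related list that were higher (red) or lower (blue) in TpMo-derived than in Ly6Chi-derived macrophages, tested and not past the threshold (grey), or not tested (hatched, with the 2 Ly6 symbols that are not in the table). The list of other classical monocyte genes holds changes in both directions (6 and 10 of 31 tested), the S100 and chitinase lists hold none, and the transglutaminase and coagulation list holds 3 lower and 0 higher.

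Genes whose level followed that of a member over the 6 libraries were sought among the 9236 genes that averaged 5 CPM or more, by Pearson's r of log2 values. For F13a1 the closest were Pura (r = 0.991) and Fastkd3 (r = 0.990), neither of which passed the test between groups. The closest to Fn1 were Tbc1d7 (r = 0.993) and Scrib (r = 0.991), those to Gpr141 Rnaseh1 and Bdp1 (r = 0.983 each), and those to S100a4 Gtse1 (r = 0.998) and Pgam1 (r = 0.996), both of which fell. For Vcan they were Cgas and Polr2b (r = 0.987 and 0.984), and for Chil3 Gpbp1l1 and Ppp2cb (r = 0.987 and 0.976). Vcan, Chil3 and S100a4 were near zero, with at most 20 counts in any library, so their r values rest on few counts. S100a4 passed the filter only through the Ly6Chi-derived libraries. The libraries share group and depth with both genes of each pair, and the highest of many values over 6 libraries describes these libraries only.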

How the data were processed

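STAR and the genome build GRCm38 are named in the submitters' processing notes. The deposited values are raw counts of reads on each gene, which the authors made with featureCounts 1.6.3 on GENCODE M22 exons, per the file header, with no option for pairs, strand or multi-mapped reads. By that program's defaults both mates of a pair are counted and ambiguous reads are left out. Of counts from 1 to 30, 71.3 to 72.4% were even, so counting intervals on reads are too narrow, and they cover counting error only. The deposited exon length (another column of that table) was used for TPM. SMART-seq v2, the method named in the labels' protocols, does not keep strand. Of the identifiers, 55394 matched a GENCODE M21 symbol.

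The test ran in edgeR 4.0.16 (R 4.3.3) on genes that passed filterByExpr, with a minimum count of 10 (TMM, robust quasi-likelihood, no covariate). CPM uses TMM-scaled totals over genes tested, and floors of 3 counts use library totals. Positive log2 fold changes mean higher in TpMo-derived macrophages. Genes under the filter had an exact permutation test. Near zero means under 1 CPM in every library. Alternatives used DESeq2 1.42.0, limma 3.58.1, other scalings and filters, and each library left out. The 9 genes, the lists and the alternatives were chosen with earlier results of these data known. Named are all 9 genes, their closest relatives, in each list up to 4 changed genes by p and up to 2 abundant others, and 2 genes per member by likeness (log2 of CPM plus 0.5). Other genes, among them Mrc1, Itgam, Ltf, Ngp, Cdh5 and genes with 0 counts, are named outside these rules with their values known. Symbols Ly6m and Ly6g2 were not matched. Replicates were numbered in accession order.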

Additional observations from a re-analysis of the deposited data

How the results depend on the processing

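F13a1 stayed past the threshold under 12 of 13 alternatives and lost its call in the test against a 1.5-fold change (log2 fold change 1.85, adjusted p = 0.0678), where the number of the 9 genes called higher is 0 and the test itself is stricter. The number called lower was 0 under all 13 alternatives, and no other of the 9 genes was called under any in which it was tested. With each library left out, values that did not pass changed sign for Fn1 (-0.80 to 0.22), Chil3 (-0.19 to 2.18) and Gpr141 (-0.32 to 0.16). The difference of mean CPM of Hp also changed sign (-0.226 to 0.0735), and the log2 fold change of Vcan ran from 0.05 to 1.67. The number of near-zero genes, 6, was 3 with a limit of 1 TPM (Ly6c2, Vcan and Plac8) and 3 with a limit of 0.5 CPM (Ly6c2, Plac8 and S100a4), and F13a1, Fn1 and Gpr141 were in neither. Over all genes, the test against a 1.5-fold change called 191 higher and 126 lower, DESeq2 called 1176 lower against 761, and leaving out a library gave 531 to 750 higher and 445 to 742 lower. The causes of these shifts were not tested. Vcan, Chil3 and S100a4 have no value with the filter of at least 5 CPM in 3 libraries, which they do not pass. Counts of 0 to 22 per library limit what can be said of Ly6c2, Vcan, Plac8, Chil3, Hp and S100a4. No paired analysis was possible because the labels give no replicate numbers.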
